A study of Homo sapiens with 12 samples.

Results

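The MYC, MAX and MXD network was followed through its 10 genes MYC, MYCN, MAX, MXD1, MXD3, MXD4, MXI1, MNT, MLX and MLXIP. They were taken by symbol from the 41878 gene rows of the count table, and all 10 were among the 18030 genes with enough counts to be tested. The samples were HEK293T cells, a human embryonic kidney line carrying the SV40 large T antigen, measured by sequencing of polyadenylated RNA. Cells received 1 µg of empty vector or of a plasmid for TRPML3, an endolysosomal cation channel encoded by MCOLN3, with the Effectene reagent. They were then kept in medium with 10% serum (fed) or in medium with 0% serum for 4 h (starved). This gave 4 groups of 3 libraries, described by the labels as biological triplicates: vector fed, vector starved, TRPML3 fed and TRPML3 starved. The labels do not give the share of cells that took up a plasmid, and each library may mix transfected and other cells. What separated the triplicates is not stated either, so p-values measure the spread between these samples. The comparisons ask what channel overexpression and what serum withdrawal did to these transcripts.

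MYC and MYCN are transcription factors that bind DNA as dimers with MAX, mostly at the E-box CACGTG, and raise the transcription of genes for ribosome production, nucleotide synthesis and cell growth. The proteins MXD1, MXD3, MXD4, MXI1 and MNT compete for MAX and bring SIN3 and histone deacetylases to the same sites, where they lower transcription. MLX pairs with MLXIP (MondoA), which senses sugar phosphates and drives TXNIP and ARRDC4, and also with MXD1, MXD4 and MNT. In many cell types MYC and MNT are made together, and the balance of MYC and MXD proteins shifts as cells stop dividing.

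Because the proteins of this network recognise CACGTG, the promoters of the members were searched for it, and the stretches that hold it are shown. The windows ran from 250 bases before to 50 bases after each annotated start (RefSeq, GRCh38.p14). The motif reads the same on both strands, so 1 search covers both, and no other motif was searched. Of the 9 members in the promoter table, with 12 windows, 3 held it: MXD4, MNT and MLX. MYC has no entry there, so its promoter was not searched. Over all promoters in the table, 7.26% of 35116 windows and 8.77% of 27305 genes held the motif. The MXD4 stretch lies at chr4:2262315-2262359 (minus strand) with the motif starting 238 bases before the start site, and the MNT stretch at chr17:2401221-2401280 (minus strand) with the motif 193 bases before it. The MLX stretch lies at chr17:42567023-42567082 (plus strand) with the motif 50 bases before the start. ARRDC4, the MLXIP target that differed most clearly with serum (described later), is shown for comparison at chr15:97960466-97960525 (plus strand), its motif 210 bases before the start. Capitals mark CACGTG, and each stretch is written 5′ to 3′ on the gene's strand.
MXD4: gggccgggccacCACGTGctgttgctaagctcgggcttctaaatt
MNT: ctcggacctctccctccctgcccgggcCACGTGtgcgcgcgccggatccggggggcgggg
MLX: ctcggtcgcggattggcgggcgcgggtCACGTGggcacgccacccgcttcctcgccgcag
ARRDC4: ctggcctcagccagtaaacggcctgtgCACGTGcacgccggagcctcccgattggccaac
A match describes these letters only; binding was not measured here.

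Libraries held 33101540 to 43700547 counts. MCOLN3 checked the labels: it stood at 9.31 to 18.4 CPM (counts scaled to a common library size with TMM factors) in the 6 vector libraries and at 4929 to 58223 CPM in the 6 TRPML3 libraries. In replicates 1, 2 and 3 it stood at 6211, 4929 and 39972 CPM in TRPML3 fed cells and at 41362, 58223 and 16896 CPM in TRPML3 starved cells. The channel transcript was thus higher in starved cells in numbers 1 and 2 and lower in number 3, and its part in the serum differences of TRPML3 cells and in the interaction was not tested. The 8 genes listed as markers of HEK293 cells all averaged above 1 CPM, with a summed level of 545 to 1030 CPM. Markers of other cells were low: the summed level was 0.620 to 1.94 CPM for 4 haematopoietic genes, 0 to 0.494 CPM for 3 endothelial genes and 0.234 to 2.05 CPM for 3 hepatocyte genes, with TTR at 0. The 4 fibroblast genes summed to 2.81 to 25.2 CPM, with COL1A1 alone at 0.225 to 20.6 CPM. Libraries also differed by replicate number: mitochondrial genes took 2.81 to 4.40% of the counts in those numbered 1, 1.05 to 2.52% in number 2 and 4.83 to 5.70% in number 3. Without number 3 the average starvation effect called 4.49% of tested genes at an adjusted p under 0.05, without number 1 it called 0.00547% and without number 2 it called 0% (edgeR). Counts of members, MXI1 and the list genes are therefore also given for starvation without number 3, a setting chosen with earlier results known. In these bulk samples, fewer cells that make a transcript and less of it per cell cannot be told apart.

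Levels of different genes were compared only per length, as CPM per kilobase of exon over all 12 libraries. The length is that of all annotated exons of a gene merged, from 2602 bases for MYCN to 13905 for MLXIP. It may differ from the length of the transcripts present, and the order of the genes depends on it. MAX, the shared partner, averaged 42.2 ± 6.63 (SD, n = 12) and MYC 42.1 ± 9.88, with overlapping ranges. MLX followed at 14.3 ± 2.27 and MXI1 at 14.1 ± 4.57, again overlapping. The ranges of MAX and MYC lay wholly above those of MLX and MXI1. MXD1 stood at 6.87 ± 1.75 and MLXIP at 5.63 ± 1.29 CPM per kilobase, overlapping each other. MXD4 at 2.50 ± 0.564, MXD3 at 1.16 ± 0.358 and MNT at 1.02 ± 0.531 formed the low end of the MAX-binding repressors. MYCN was lowest at 0.0770 ± 0.0812 CPM per kilobase, and its range did not reach that of MNT. The ranges of MXI1 and MXD1, and those of MLXIP and MXD4, did not overlap either. By group means, MAX ranked first and MYC after it in both fed groups, and MYC ranked first in both starved groups, although their values overlapped.

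**Figure D1:**
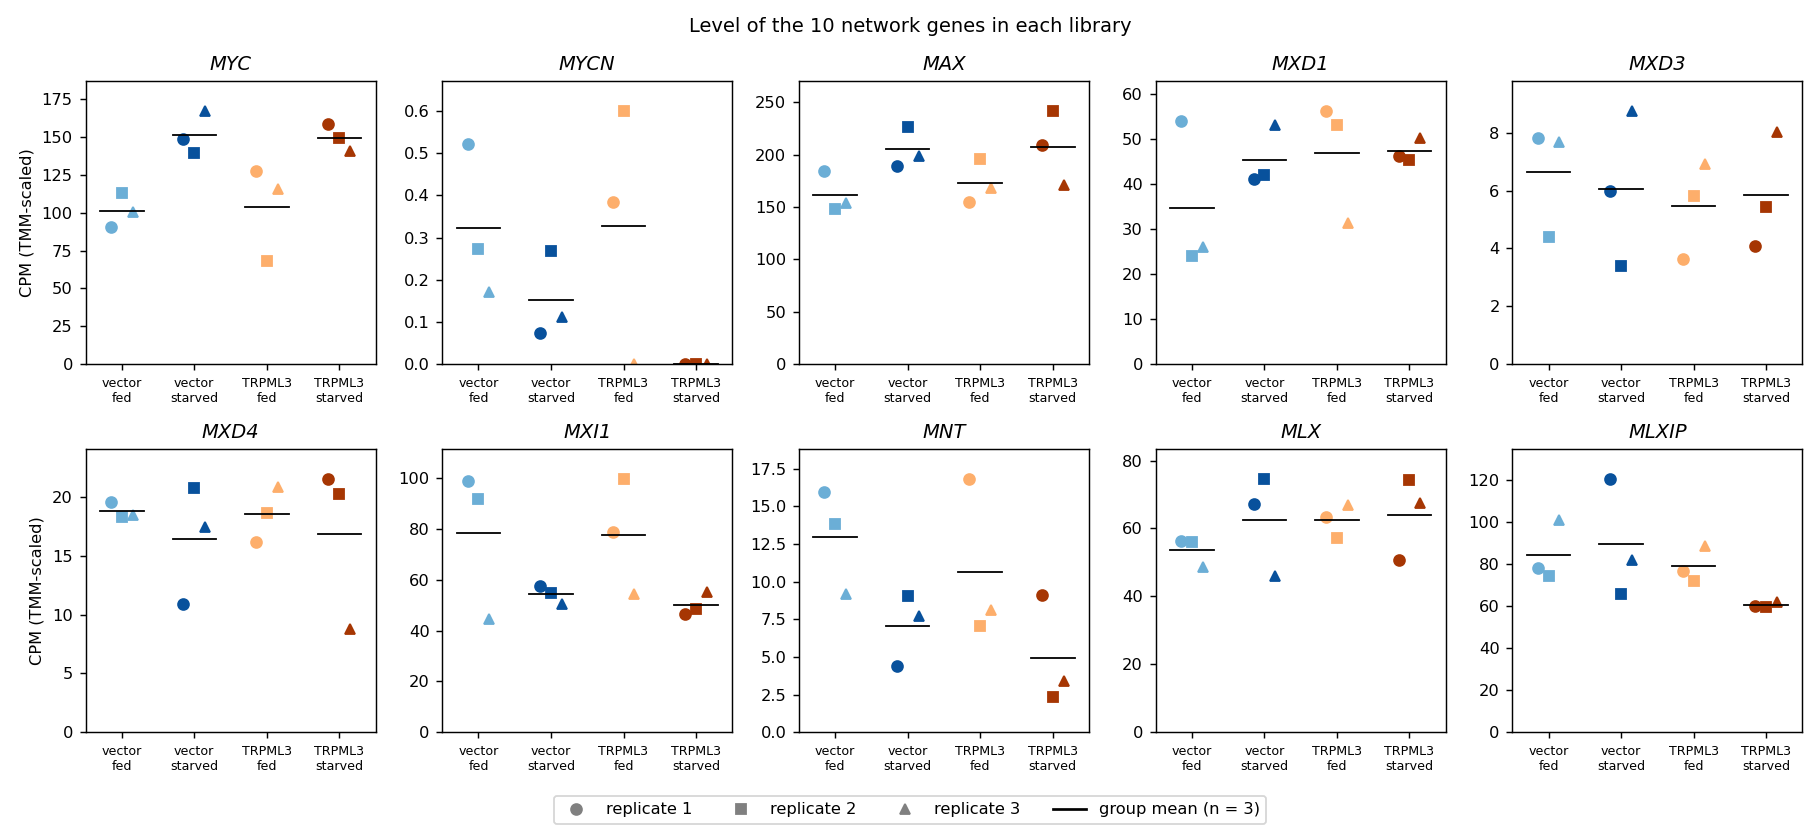
Level of each network gene in every library, in TMM-scaled CPM on a linear axis from 0, by group; point shape gives the replicate number and each line a group mean (n = 3). MYC sits at 68.3 to 127 CPM in the fed libraries and at 139 to 167 CPM in the starved ones.

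MYC was the member that separated the serum states most cleanly. In vector fed cells it stood at 90.3, 113 and 100.2 CPM in replicates 1, 2 and 3, and in vector starved cells at 148, 139 and 167 CPM. TRPML3 fed cells gave 127, 68.3 and 116 CPM, and TRPML3 starved cells 159, 149 and 141 CPM. All 6 starved libraries lay above all 6 fed libraries, which held for 0.754% of the tested genes in this direction. The mean was 102 ± 21.1 CPM (SD, n = 6) in fed and 150.4 ± 10.6 CPM (SD, n = 6) in starved libraries, a fitted 1.47-fold difference.

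The test across all genes did not call this difference. Averaged over both plasmids, the log2 fold change of MYC (starved against fed) was 0.55 ± 0.16 (SE). In edgeR's quasi-likelihood test this had an unadjusted p = 0.00461 and, after Benjamini-Hochberg correction, an adjusted p = 0.363. Within vector cells it was 0.58 ± 0.22 (adjusted p = 1, edgeR), and within TRPML3 cells 0.53 ± 0.22 (adjusted p = 0.857, edgeR). Within TRPML3 cells the value was 0.29 without fed replicate 2. Without the libraries numbered 3, MYC stayed higher after starvation within either plasmid but did not reach an unadjusted p under 0.05 (edgeR). The interaction, which tests whether the serum difference depended on the plasmid, was -0.056 ± 0.31 (unadjusted p = 0.859, edgeR), so it was not resolved from 0. The starvation value averaged over both plasmids stayed positive in all 25 alternative settings, between 0.44 and 0.64, with adjusted p from 0.0747 (DESeq2) to 1.

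MYC showed no resolved difference between plasmids. The log2 fold change of TRPML3 against vector was 0.037 ± 0.22 in fed cells (unadjusted p = 0.868, edgeR) and -0.019 ± 0.22 in starved cells (unadjusted p = 0.933, edgeR). Averaged over serum states it was 0.0092 ± 0.15 (unadjusted p = 0.954, edgeR). The TRPML3 fed libraries spread most, with a mean of 104 ± 31.3 CPM (SD, n = 3) against 101 ± 11.3 CPM in vector fed cells, and replicate 2 at 68.3 CPM was the lowest MYC value of the series. The sign of these plasmid values changed between settings.

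MYCN, the paralogue active in neural and some embryonic cells, was near the detection limit. Its raw counts in replicates 1, 2 and 3 were 19, 12 and 6 in vector fed cells and 3, 10 and 5 in vector starved cells. They were 16, 23 and 0 in TRPML3 fed cells and 0, 0 and 0 in TRPML3 starved cells. Only 5 libraries reached 10 counts, 4 of them fed, and 4 libraries held none. MYCN thus passed the filter on low counts mainly through its fed libraries.

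TRPML3 starved cells held no MYCN count, so group means were set against a floor of 3 counts per library (0.0881 CPM). The TRPML3 fed mean of 0.328 CPM was 3.72-fold this floor, and the vector starved mean of 0.151 CPM 1.72-fold. TRPML3 fed replicate 3 also held no count, so TRPML3 fed and starved cells overlapped. The first ratio was 2.18-fold without TRPML3 fed replicate 2 and 5.58-fold without replicate 3. Without vector starved replicate 2 the second was 1.06-fold. The libraries at 3 and at 0 counts are not separated by this floor. The vector fed mean was 0.323 CPM. Unadjusted p was 0.0197 for the channel in starved cells, 0.00732 for serum withdrawal with the channel present and 0.00851 averaged over plasmids (edgeR). It was 0.0370 for the interaction and 0.0388 for the average plasmid effect (edgeR). The lowest adjusted p among these was 0.367, so none passed, and the fitted fold changes are not given because they depend on the prior count. Because MYCN passed the filter mainly through its fed libraries, these ratios and p-values support no difference. MYCN shares 98 exon bases with its antisense gene MYCNOS, and whether counting used strand is not given in the sources used here.

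MAX, the obligate partner of MYC and of the MXD proteins, stood higher in starved libraries. Vector fed cells gave 184, 148 and 154 CPM and vector starved cells 189, 227 and 199 CPM, with no overlap. TRPML3 fed cells gave 155, 196 and 168 CPM and TRPML3 starved cells 209, 241 and 171 CPM, which overlap. Averaged over plasmids, the log2 fold change was 0.30 ± 0.12 (unadjusted p = 0.0306, adjusted p = 0.471, edgeR). In vector cells alone it was 0.34 ± 0.17 (unadjusted p = 0.0726, adjusted p = 1, edgeR), and 0.21 without the libraries numbered 2. MAX shares 184 exon bases with an antisense gene.

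MXI1, a MAX-binding repressor, was lower after starvation in replicates 1 and 2 and not in replicate 3. Vector fed cells gave 98.9, 91.7 and 44.7 CPM and vector starved cells 57.6, 54.9 and 50.3 CPM. TRPML3 fed cells gave 78.8, 99.6 and 54.3 CPM and TRPML3 starved cells 46.4, 48.3 and 55.3 CPM. The fed libraries numbered 3 therefore lay within or just below the range of the starved libraries, and the groups overlapped. Over all libraries the average log2 fold change was -0.58 ± 0.21 (unadjusted p = 0.0206, adjusted p = 0.437, edgeR), and it did not pass.

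Without the libraries numbered 3, the log2 fold change of MXI1 was -0.83 ± 0.12 with an adjusted p of 0.0305 (edgeR), and MXI1 fell with starvation in that test. The fed libraries numbered 1 and 2 then spanned 78.8 to 99.6 CPM and the starved ones 46.4 to 57.6 CPM. MXI1 was the 1 member of 10 called there, while 4.49% of 18052 tested genes were called and 1.94% as lower. By replicate number, the mean log2 ratio of starved to fed was -0.77 in number 1, -0.89 in number 2 and 0.098 in number 3. Adding the replicate number as a block to the fit on numbers 1 and 2 gave -0.82 with an adjusted p of 0.0672 (edgeR), which ended the call. Over its 25 alternatives the adjusted p ranged from 0.0305 to 1. Without number 1 the log2 fold change was -0.48 and without number 2 it was -0.40, both with an adjusted p of 1 (edgeR). The part played by mitochondrial share, which differed by number, was not tested. MXI1 shares 205 exon bases with the antisense gene AL360182.2.

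**Figure D2:**
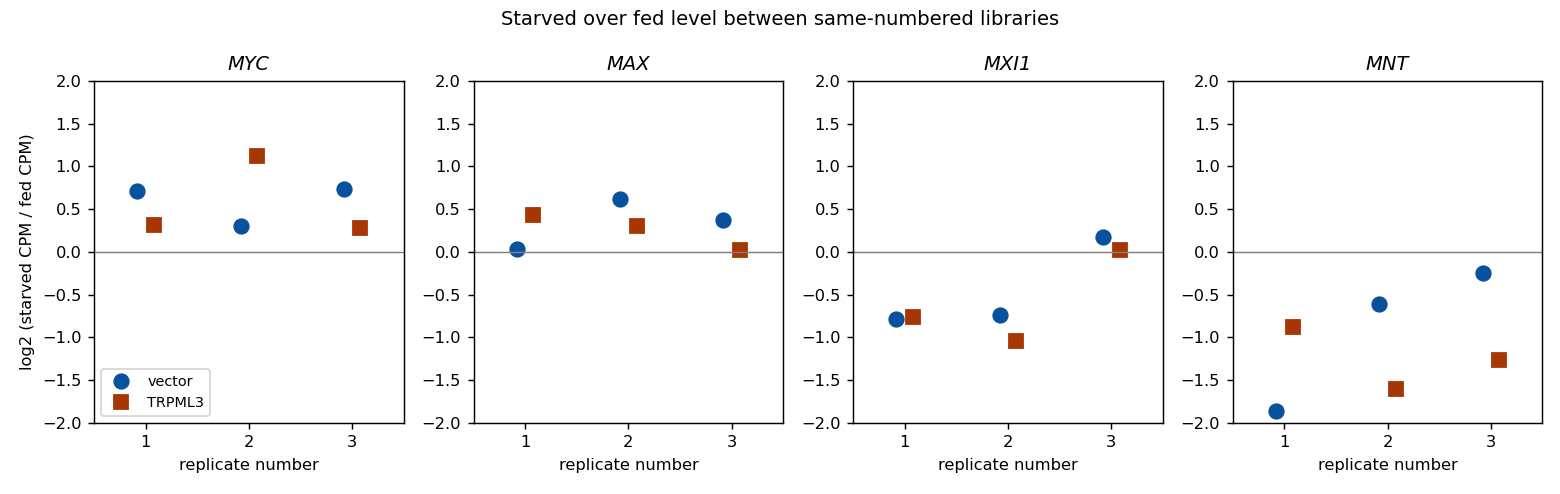
Log2 ratio of the starved to the fed library of the same number for MYC, MAX, MXI1 and MNT, by plasmid and replicate number; the line at 0 marks equal levels. The points of MXI1 lie below 0 in numbers 1 and 2 and slightly above it in number 3. Over genes, fed and starved libraries of 1 plasmid and number did not deviate together (r = -0.076 to 0.0075), so they were not treated as pairs. Mitochondrial share did differ by number across the 4 groups.

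MNT, the repressor that is present alongside MYC in most proliferating cells, stood lower in starved libraries. Vector fed cells gave 15.9, 13.8 and 9.15 CPM and vector starved cells 4.38, 9.04 and 7.72 CPM, with all 3 starved values below all 3 fed ones. TRPML3 fed cells gave 16.8, 7.03 and 8.12 CPM and TRPML3 starved cells 9.14, 2.31 and 3.39 CPM, which overlap. The average log2 fold change was -0.99 ± 0.38 (unadjusted p = 0.0262, adjusted p = 0.462, edgeR), and within vector cells it was -0.88 ± 0.54 (unadjusted p = 0.134, adjusted p = 1, edgeR). The value in vector cells was -0.46 without the libraries numbered 1. MNT exons share 1065 bases with the antisense gene AC006435.1.

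The 3 MXD genes showed no common direction. MXD1, induced in many cells as they differentiate, gave 54.1, 24.0 and 26.0 CPM in vector fed and 41.1, 42.0 and 53.3 CPM in vector starved cells. It gave 56.2, 53.2 and 31.3 CPM in TRPML3 fed and 46.3, 45.4 and 50.4 CPM in TRPML3 starved cells. Fed MXD1 values thus scattered more widely than starved ones, and every pair of groups overlapped. In fed cells MXD1 was higher with TRPML3 in 3 of 3 same-numbered libraries, as were 13.3% of tested genes, with a log2 fold change of 0.44 ± 0.33 (unadjusted p = 0.217, adjusted p = 1, edgeR). MXD1 shares 237 exon bases with SNRNP27 on the same strand. MXD3 ranged from 3.40 to 8.73 CPM and MXD4 from 8.74 to 21.5 CPM over the 12 libraries, also with overlap throughout. MXD3 shares 926 exon bases with RAB24 and 1158 with PRELID1, so its counts are uncertain.

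MLX, the MAX-like partner of MLXIP, was slightly higher with the channel in fed cells. It stood at 56.3, 56.1 and 48.8 CPM in vector fed and at 63.4, 57.3 and 67.0 CPM in TRPML3 fed cells, with no overlap. Starved values were 67.2, 74.5 and 45.9 CPM with vector and 50.6, 74.3 and 67.4 CPM with TRPML3, which overlap. The log2 fold change in fed cells was 0.22 ± 0.22 (unadjusted p = 0.342, adjusted p = 1, edgeR), and without the libraries numbered 3 it was 0.11. MLX shares 770 exon bases with PSMC3IP on the other strand.

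MLXIP was lowest in starved cells with the channel. It gave 78.2, 74.2 and 100.9 CPM in vector fed, 120.2, 65.8 and 81.9 CPM in vector starved, 76.6, 72.0 and 88.3 CPM in TRPML3 fed and 59.8, 59.4 and 62.0 CPM in TRPML3 starved cells. The 3 TRPML3 starved values lay below all 3 vector starved values, as did 3.56% of tested genes. They also lay below all 3 TRPML3 fed values, as did 5.66%. The nearest vector starved library stood at 65.8 CPM, against 62.0 CPM. Against vector starved cells the log2 fold change was -0.56 ± 0.23 (unadjusted p = 0.0322, adjusted p = 1, edgeR), and against TRPML3 fed cells -0.39 ± 0.23 (unadjusted p = 0.120, adjusted p = 0.890, edgeR). Both comparisons use the same TRPML3 starved libraries. The interaction was -0.47 ± 0.32 (unadjusted p = 0.177, edgeR), so a plasmid difference that depends on serum was not resolved. Without the libraries numbered 1, the value against vector starved cells was -0.29.

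**Figure D3:**
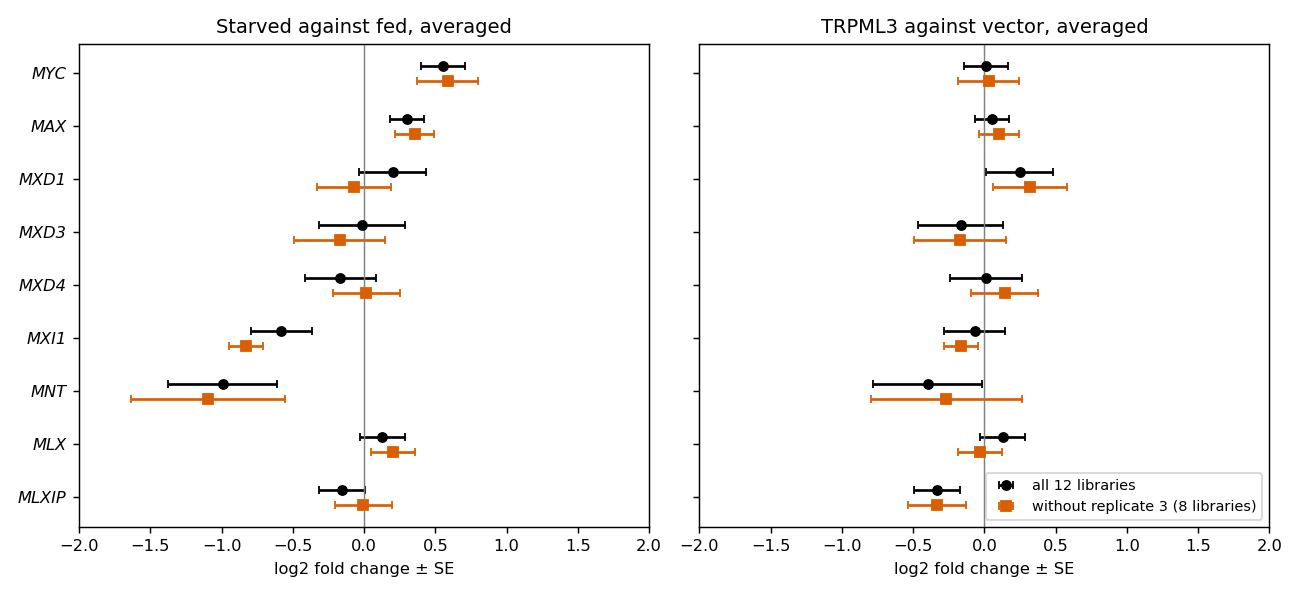
Log2 fold change of 9 members (MYCN is left out) from edgeR for the average starvation and average TRPML3 effects, with bars of 1 SE, over all 12 libraries (circles) and without replicate 3 (squares). The starvation values of MYC and MAX lie above 0 and those of MXI1 and MNT below it under both settings.

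Counted over the network, 0 of 10 members passed an adjusted p of 0.05 in any of the 7 comparisons with edgeR. The shares of all tested genes called were 0.0111% for TRPML3 against vector in fed cells and 0.00555% in starved cells. They were 0.00555% for starvation in vector cells and 0% in TRPML3 cells, 0% for the interaction, 0% for the average starvation effect and 0.0111% for the average TRPML3 effect. With edgeR and all libraries, at most 2 genes of 18030 were called in a comparison, so the members' count of 0 says little about them. DESeq2's Wald test also called 0 members, among 0.167%, 0.239%, 0.239%, 0.49%, 0.15%, 1.6% and 0.161% of genes in the same order, with MYCN given no adjusted p in the average starvation effect. Limma-trend on the deposited normalized values called 0 members, among 0.0086%, 0.0043%, 0.0043%, 0%, 0%, 0% and 0.0172% of genes.

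At an unadjusted p under 0.05, 5 of 10 members differed in the average starvation effect, against 9.45% of all tested genes: MYC and MAX higher (4.66% of genes) and MYCN, MXI1 and MNT lower (4.79%). MYCN passed the filter mainly through the fed libraries where it is higher, so its place in this and the next counts supports no difference. Starvation alone gave 1 member in vector cells (MYC, 4.44% of genes) and 2 in TRPML3 cells (MYC and MYCN, 5.71%). The plasmid comparisons gave 0 members in fed cells (2.21%) and 2 in starved cells (MLXIP and MYCN, 2.2%). MYCN was the only member for the average TRPML3 effect (2.62%) and for the interaction (2.07%). Without the libraries numbered 3, the average starvation effect gave 4 members against 23.3% of genes. Among the members only MXI1 passed the adjusted threshold there. Within vector cells that setting gave 0 members higher (7.95% of genes) and 1 lower (6.51%). Within TRPML3 cells it gave 0 higher (8%) and 2 lower (8.14%). On leaving out libraries, number 3 included, the average starvation value of MYC was 0.44 to 0.64. That of MAX was 0.22 to 0.36 and that of MNT -1.39 to -0.75. The median log2 fold change of the members was -0.084 for average starvation and -0.029 for average TRPML3, against 0.0062 and -0.011 over all tested genes.

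Groups without overlap were counted in the same way. For starvation in vector cells MYC and MAX had all starved libraries higher (5.36% of genes) and MNT all lower (4.57%). In TRPML3 cells MYC had all higher (5.56%) and MLXIP all lower (5.66%). With the channel, MLX had all higher in fed cells (3.22%) and MLXIP all lower in starved cells (3.56%). MYCN is not counted with it, since 1 vector starved library held 3 counts, no more than the floor.

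Other genes around the network were read from lists chosen by function. Of 3 further network genes, MYCL, another MYC paralogue, averaged 5.45 ± 2.15 CPM (SD, n = 6) in fed and 3.05 ± 1.06 CPM in starved libraries, a log2 fold change of -0.84 ± 0.36 (unadjusted p = 0.0391, adjusted p = 0.493, edgeR). MLXIPL and MGA gave 0.59 ± 0.38 and -0.18 ± 0.79. No gene of any list passed an adjusted p of 0.05 with all libraries, in average starvation or average TRPML3, where 0% and 0.0111% of all genes did (edgeR). The list counts that follow are of genes with an unadjusted p under 0.05 in average starvation, where 4.66% of all tested genes were higher and 4.79% lower.

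Among 14 MYC and MAX cofactors, 3 were higher and 0 lower, with a median log2 fold change of 0.39. HCFC1, a chromatin cofactor that binds MYC, gave 0.66 ± 0.21, SUPT5H, a transcription elongation factor, 0.49 ± 0.16, and SMARCB1, a SWI/SNF subunit, 0.43 ± 0.15. Among 10 corepressor genes used by MXD and MNT proteins, 3 were higher and 1 lower, with a median of 0.16. RBBP4 and HDAC2, histone-binding and deacetylase subunits, gave 0.37 ± 0.12 and 0.20 ± 0.072. SUDS3, a SIN3 subunit, averaged 120 ± 51.2 CPM in fed and 21.6 ± 41.8 CPM in starved libraries (SD, n = 6), a log2 fold change of -3.65 ± 1.04. TRPML3 starved replicate 1 stood at 106 CPM and the other 5 starved libraries at 0.348 to 16.1 CPM, and without that library the starved SUDS3 mean was 4.71 CPM. The lowest fed library, TRPML3 fed replicate 3, stood at 31.0 CPM, so fed and starved SUDS3 values overlapped. Of 13 genes for MYC protein turnover, 0 were higher and 0 lower, with a median of 0.037.

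Of 39 genes known as activated by MYC, 6 were higher and 1 lower in starved libraries at an unadjusted p under 0.05, against 4.66% and 4.79% of all tested genes. A positive log2 fold change was found for 31 of them and for 50.7% of all genes, and the medians were 0.24 and 0.0062. GNL3 and NOP16, both nucleolar proteins of ribosome assembly, gave 0.57 ± 0.20 and 0.46 ± 0.17. CCND2, the cyclin D2 gene, went the other way at -0.64 ± 0.22. Of 10 genes known as repressed by MYC, 0 were higher and 1 lower, with a median of -0.21. That gene, GADD45A, a stress-induced growth arrest gene, averaged 205 ± 79.4 CPM in fed and 123 ± 22.4 CPM in starved libraries.

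Of 5 target genes of MLX and MLXIP, 4 were lower at an unadjusted p under 0.05 and 0 were higher, against 4.79% and 4.66% of all tested genes. Their median log2 fold change was -0.85, and 0 of 5 passed the adjusted threshold. ARRDC4, an arrestin-like protein that limits glucose uptake, stood at 163, 151 and 79.4 CPM in vector fed and 61.6, 59.6 and 56.2 CPM in vector starved cells. With the channel it stood at 98.9, 153 and 94.1 CPM fed and 53.4, 57.6 and 60.4 CPM starved. All 6 starved ARRDC4 values lay below all 6 fed ones, as did 0.499% of tested genes. Its log2 fold change was -1.08 ± 0.20 (unadjusted p = 0.000199, adjusted p = 0.299, edgeR). TXNIP, the inhibitor of thioredoxin and of glucose uptake, gave -1.51 ± 0.41, and PFKFB3, a glycolysis regulator, -0.58 ± 0.16.

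Without the libraries numbered 3, when 4.49% of all genes passed an adjusted p of 0.05 (edgeR), several list genes did too. Among MYC-activated genes 7 of 39 rose with starvation (NOP16, PES1, RRS1, GNL3, DDX18, TFRC and SLC7A5) and CCND2 fell. TXNIP fell by 1.88 and ARRDC4 by 1.27 on the log2 scale, and GADD45A fell as well. KAT5, SMARCB1, SIN3B, ARID4B and USP36 rose in this setting, and SUDS3 fell. None of these list genes passed with all libraries. The fit with the replicate block that ended the MXI1 call is not given for them. The medians were then 0.61 for cofactors, 0.16 for corepressors, 0.13 for turnover genes, 0.38 for MYC-activated genes, -0.46 for MYC-repressed genes and -1.19 for MLX and MLXIP targets, against -0.020 over all genes.

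**Figure D4:**
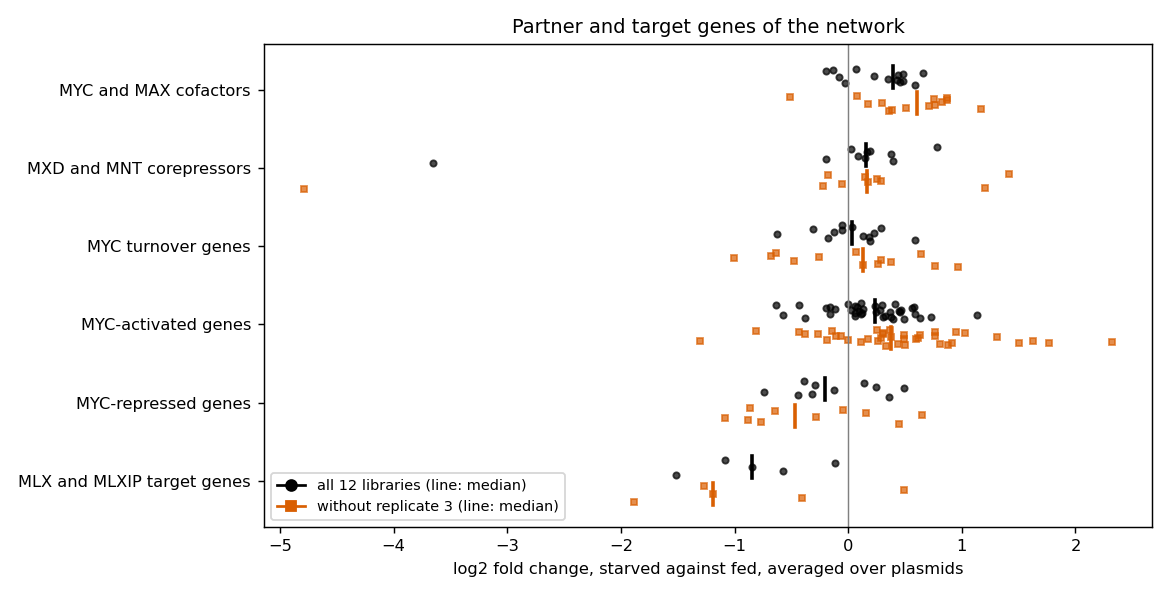
Log2 fold change of each gene of the functional lists for the average starvation effect, with all libraries and without those numbered 3; points are genes and vertical lines the list medians. The MLX and MLXIP targets sit below 0 with a median of -0.85, and the MYC-activated genes mostly above 0 with a median of 0.24.

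For TRPML3 averaged over serum states, 1 of the 93 different list genes had an unadjusted p under 0.05, a smaller share than the 2.62% of all tested genes. SUPT5H averaged 234 ± 52.9 CPM with vector and 185 ± 54.6 CPM with TRPML3 (SD, n = 6), a log2 fold change of -0.36 ± 0.16 (unadjusted p = 0.0424, adjusted p = 1, edgeR). KAT2A, an acetyltransferase that works with MYC, gave -0.53 ± 0.25, and HDAC1 gave 0.42 ± 0.19. The MYC target ODC1, the first enzyme of polyamine synthesis, gave 0.24 ± 0.13.

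The genes whose log2 CPM followed each member most closely over the 12 libraries were noted as a description. The 5 nearest to MYC were P2RX5-TAX1BP3 (Pearson r = 0.927), CD2BP2-DT (0.902), RNF227 (0.898), YIPF7 (0.894) and QRICH2 (0.891). The libraries share their depth scaling and fall into the 4 groups, so these values describe likeness over the same 12 points and were not tested. The nearest to the partner MAX was PDSS1 (r = 0.887), and to MXI1 ASB7 (r = 0.983). MNT was nearest to PLCB4 (0.897), MXD1 to SH3KBP1 (0.895), MXD3 to SLC25A28 (0.945) and MXD4 to RRAS2 (0.968). MLX was nearest to ACTBL2 (0.927), MLXIP to DCAF8L1 (0.869) and the sparse MYCN to ACP3 (0.946). Spearman's rho was only 0.664 for MXD4 and RRAS2, against 0.824 to 0.958 for the nearest genes of the other members besides MYC. Of the 5 genes nearest to MYC, 2 remained among the nearest 5 by Spearman's rho and 0 without the libraries numbered 3.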

How the data were processed

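Raw gene counts for 12 libraries were used as deposited. FastQC, fastp, HISAT2, StringTie and DESeq2 and the build GRCh38 are named, per the submitters' processing notes, and the counting settings, annotation release and use of strand are not given in the sources used here. The authors' normalized signal table (23252 rows) holds those counts divided by 1 factor per library and served only for the limma-trend alternative, on log2(value + 1). The number of columns not tied to a sample was 0.

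Counts were filtered with filterByExpr, scaled by TMM and fitted in 1 model of 4 groups with edgeR 4.0.16 (quasi-likelihood, robust) in R 4.3.3, and p-values were adjusted by Benjamini-Hochberg over all 18030 genes. CPM values are TMM-scaled. DESeq2 1.42.0 and limma 3.58.1 were alternatives, with other scalings, filters, omitted libraries and a replicate block. The fitting code was tested on simulated data. The pair of libraries most alike still differed, with a chi-square of 139 per degree of freedom, so none was counted as a repeat.

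Genes named: all members in CPM, with fold changes for MYC throughout and for other members at an unadjusted p under 0.05 or without overlap; up to 3 genes per list by p; the 5 genes most like MYC and 1 for each other member. The MLXIP interaction, the MXD1 value and fold changes without 1 library or replicate number fall outside that rule and were chosen after the values were seen. The members and lists were chosen with earlier results of these data known.

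Same-numbered fed libraries deviated together (r = 0.11, 0.15 and 0.33 over genes), which pairs them by the data, since the labels do not say what a number shares. Starved ones gave 0.13, 0.095 and 0.32. Fed and starved libraries of 1 plasmid did not (-0.076 to 0.0075), so they were not treated as pairs. The main fit also left out the pairing of vector and TRPML3 libraries. Its SEs and p-values for the plasmid comparisons therefore ignore that pairing, and the replicate block was run only as an alternative. Exon lengths came from GENCODE 29, where MLXIP, whose identifier differs, was matched by symbol. Promoters came from RefSeq (GRCh38.p14).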

Additional observations from a re-analysis of the deposited data

How the results depend on the processing

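The count of members called was 0 in all 7 comparisons under every alternative except the average starvation effect without replicate 3, where it was 1 (MXI1), so leaving out libraries gave 0 to 1. With the replicate block it was 0 in all 7, and in the fit on replicates 1 and 2 with the replicate block, an alternative chosen after seeing the data, also 0. Of 504 fold changes recomputed, 27 changed sign, all of them MYC values for the plasmid or the interaction near 0, and the cause was not tested. For MYC, TRPML3 against vector in fed cells gave -0.034 with library size scaling only and -0.083 in replicates 1 and 2 with the block; leaving out libraries gave -0.22 to 0.36. In starved cells it gave 0.10 in replicates 1 and 2 with the block, and -0.084 to 0.10 on leaving out libraries. The interaction gave 0.18 in replicates 1 and 2 with the block, and -0.44 to 0.14 on leaving out libraries. The average TRPML3 effect gave -0.078 with library size scaling only, -0.0022 with the replicate block and -0.0068 with limma-trend, and -0.15 to 0.14 on leaving out libraries. Library size scaling alone moved the median of all genes by -0.036 to -0.10. The median SE of a fold change was 0.45 for 3 against 3 libraries and 0.32 for the averages, which limits what differences could pass. Counting error matters for MYCN, at 0 to 23 counts a library.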
